A study of Mus musculus with 4 samples.

Results

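The surfactant genes Sftpa1, Sftpb, Sftpc and Sftpd and the secretoglobin genes Scgb1a1 and Scgb3a2 were followed in whole mouse lung with and without endothelial deletion of ERG, first in epithelial cells and then as RNA found in other cell types. These 6 members, listed by name, were all among the 20076 gene rows of the deposited single-cell matrix.

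Pulmonary surfactant is a film of lipid and protein that alveolar type 2 cells store in lamellar bodies and secrete onto the alveolar surface, where it lowers surface tension. Sftpb and Sftpc encode the small hydrophobic proteins that act in the film itself. Sftpa1 and Sftpd encode the collectins SP-A and SP-D, soluble lectins that bind microbes. Scgb1a1 encodes the secreted protein by which club cells of the conducting airway are usually identified, and Scgb3a2 encodes a related secretoglobin of airway epithelium. RNA of such abundant secretory genes is freed when lung is dissociated and is captured in droplets with cells that do not make it.

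The libraries came from 4 mice. WT mice (n = 2) carried ERG fl/fl alleles without Cre, and ERG CKO mice (n = 2) carried CDH5-CreER(T):ERG fl/fl, in which the Cdh5 promoter drives an inducible Cre in endothelial cells. Both groups therefore carried floxed alleles and both received 5 daily injections of 0.5 mg tamoxifen, and lungs were taken 90 days later. The strain background was C57/BL6, and the age of these 4 mice is not given in the sources used here. The epithelium that makes the members was outside the cells in which this promoter is known to act, so the comparison asks how epithelial secretory transcripts stood in lungs whose endothelium had been targeted.

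By the mouse GENCODE annotation of GRCm38, the build that mm10 names, Sftpa1 (ENSMUSG00000021789) lies on chr14:41131782-41136452 on the plus strand and Sftpd (ENSMUSG00000021795) close to it on chr14:41172214-41185149 on the minus strand. Sftpc (ENSMUSG00000022097) lies on chr14:70520949-70524081, minus strand, and Sftpb (ENSMUSG00000056370) on chr6:72304610-72314371, plus strand. Counts were given per gene, so exons could not be told apart. RefSeq promoter sequence (GRCm38.p6) was at hand for 2 of the 6 members, Sftpa1 and Sftpb, which followed each other across cell types (Pearson r of 0.94 over 71 profiles, described at the end). The 250 bases before each RefSeq start are shown 5′ to 3′ because both genes are classical targets of NKX2-1, the lung epithelial homeodomain factor. Capitals mark CTCAAG, a core of the NKX2-1 motif, searched on both strands. The windows are chr14:41131538-41131787 and chr6:72304360-72304609, both plus strand.
Sftpa1: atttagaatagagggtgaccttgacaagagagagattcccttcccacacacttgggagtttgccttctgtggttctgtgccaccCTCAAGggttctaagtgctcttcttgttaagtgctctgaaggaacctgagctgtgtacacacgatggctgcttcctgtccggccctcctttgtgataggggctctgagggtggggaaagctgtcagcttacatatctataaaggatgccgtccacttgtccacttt
Sftpb: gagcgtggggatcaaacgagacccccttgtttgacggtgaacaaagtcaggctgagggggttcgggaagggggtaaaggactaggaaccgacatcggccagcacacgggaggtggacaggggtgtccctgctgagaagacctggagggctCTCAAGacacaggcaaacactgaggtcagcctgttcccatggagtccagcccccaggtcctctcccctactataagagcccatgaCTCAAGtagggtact
The Sftpa1 window held 1 match and the Sftpb window 2. Of 32851 promoter windows of this length, 13.3% held at least 1 match, so a match describes these letters and is not a mapped site.

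The matrix held 9363 cells with 11263911 to 18646776 UMIs per library (unique molecular identifiers, each standing for an RNA molecule that was captured) and medians of 4611 to 4899 UMIs per cell. In endothelial cells the targeted gene, Erg, stood at 83.8 and 93.6 CPM (UMIs scaled to a common total) in the WT replicates, against 108 and 85.8 CPM in the ERG CKO replicates, with a log2 fold change of 0.09 (SE 0.16, adjusted p = 0.857, edgeR). Counts per gene do not show whether a floxed exon was lost, so Erg does not check the genotype here. Xist was found in replicate 1 and Ddx3y in replicate 2 of both groups, so sex was balanced between the groups and moved with the replicate number, and 7 cell barcodes were shared by libraries.

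Epithelial cells were few, and marker sums bore out the alveolar type 2-like name in every library but not every other name. Clusters were named from marker lists without using the members, and 53, 26, 39 and 22 cells of WT replicates 1 and 2 and ERG CKO replicates 1 and 2 were named epithelial, or 2.34%, 1.21%, 1.26% and 1.19% of each library. The mean share was 1.78% ± 0.80 in WT and 1.22% ± 0.0505 in ERG CKO (SD, n = 2 each), and the groups overlapped (difference of -0.552 percentage points, two-sided exact permutation p = 0.667, where 0.333 is the smallest p that 2 against 2 allows). Alveolar type 2-like cells numbered 20 and 14 in WT libraries, against 8 and 8 in ERG CKO (0.883%, 0.651%, 0.258% and 0.432% of cells), club-like cells 11, 3, 14 and 7, alveolar type 1-like cells 13, 4, 11 and 6, and ciliated-like cells 9, 5, 6 and 1. All 12 alveolar type 2 markers were detected in the alveolar type 2-like cells of every library, but also in its non-epithelial cells. They summed to 22292, 13402, 10977 and 19950 CPM in alveolar type 2-like cells, against 202, 310, 371 and 338 CPM in non-epithelial cells. These sums were the largest of the 4 subtype lists in alveolar type 2-like cells. The club markers summed to 5036, 11946, 7445 and 2956 CPM there, in the same library order. Of the 12 club markers, 12, 10, 10 and 6 were detected in club-like cells, and they summed to 15382 and 24582 CPM there in the WT replicates but to 7935 and 1629 CPM in the ERG CKO replicates, below the 10192 and 8098 CPM of ciliated-like cells of those libraries. Haemoglobin genes (Hbb-bs, Hbb-bt, Hba-a1 and Hba-a2) were among the leading genes of the club-like cluster. The 8 endothelial markers summed to 1680 and 1821 CPM in alveolar type 1-like cells of the ERG CKO replicates, against 264 and 287 CPM in those of the WT replicates, and to 4824 CPM in the 1 ciliated-like cell of ERG CKO replicate 2. Comparisons that rest on these subtypes are therefore weaker than those on alveolar type 2-like cells, which held club markers as well.

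Some cells could not be named and are kept in view below. A further 232, 216, 495 and 269 cells (10.2%, 10.05%, 15.98% and 14.5% of the libraries) lay in 2 clusters with endothelial markers but more leading genes of erythroid or epithelial cells. They entered neither the epithelial nor the non-epithelial sums nor any class, and Sftpc stood in them at 108, 40.9, 332 and 45.8 CPM, highest in ERG CKO replicate 1. A subcluster of 4, 4, 19 and 41 cells of the epithelial clusters had endothelial leading genes and fewer than 3 markers of any subtype, stayed unnamed and was left out of the epithelial sums. In ERG CKO replicate 1 it held 28.5% of the Sftpc UMIs of the library, against 7.89% and 14.7% in WT replicates 1 and 2 and 0.0198% in ERG CKO replicate 2. With it kept, the epithelial share was 0.681 points higher in ERG CKO than in WT (exact permutation p = 0.667), the opposite direction. A barcode of WT replicate 2 had 235523 UMIs and 9443 genes, sat in the alveolar type 2-like cluster and was not called a doublet. It held 119501 Scgb1a1 UMIs, 80.6% of that library's, and 90.3% of its Scgb3a2 UMIs.

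In alveolar type 2-like cells no surfactant gene passed the test between WT and ERG CKO, and with every barcode kept the groups overlapped for each of the 4. Sftpc made up a large part of these cells' RNA, at 177110 and 123198 CPM in the WT replicates, against 111867 and 201857 CPM in the ERG CKO replicates. The highest and the lowest of the 4 values were both ERG CKO, so the groups overlapped fully. The fitted log2 fold change came to -0.17 (SE 0.35, adjusted p = 0.999, edgeR quasi-likelihood test), and it was 0.08 when libraries were scaled by total UMIs, which moved the median of all genes from -0.01 to 0.27. For Sftpb, which encodes the other hydrophobic protein, the levels were 8276 and 6175 CPM in WT, against 3704 and 9280 CPM in ERG CKO. ERG CKO replicate 1 was the low library, and the log2 fold change came to -0.39 (SE 0.44, adjusted p = 0.999, edgeR).

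The collectin genes gave smaller standard errors. Sftpa1 stood at 22183 and 16391 CPM in WT, against 17154 and 18799 CPM in ERG CKO, with a log2 fold change of -0.35 (SE 0.24, adjusted p = 0.999, edgeR). Sftpd stood at 4738 and 2908 CPM in WT, against 3820 and 3363 CPM in ERG CKO, with a log2 fold change of -0.33 (SE 0.26, adjusted p = 0.999, edgeR). For both genes the ERG CKO values lay between the WT values. Without the barcode of 235523 UMIs, WT replicate 2 moved up to 222722 CPM for Sftpc, 9740 for Sftpb, 24458 for Sftpa1 and 4154 for Sftpd, the barcode itself holding 27 Sftpc UMIs. The fold changes were then -0.45, -0.56, -0.48 and -0.42 on the log2 scale for Sftpc, Sftpb, Sftpa1 and Sftpd, and none was called. The groups then no longer overlapped for Sftpa1 and Sftpd, with both ERG CKO libraries below both WT libraries, and still overlapped for Sftpc and Sftpb. Scgb1a1 stood at 57336 and 227475 CPM in these cells of WT mice and at 71105 and 403 CPM in those of ERG CKO mice, and WT replicate 2 had 1143 CPM without the barcode. Of 4137 genes tested in alveolar type 2-like cells 0% were called and 112 had an unadjusted p under 0.05, and DESeq2 also called 0 genes, so a member without a call was like every other gene there.

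**Figure D1:**
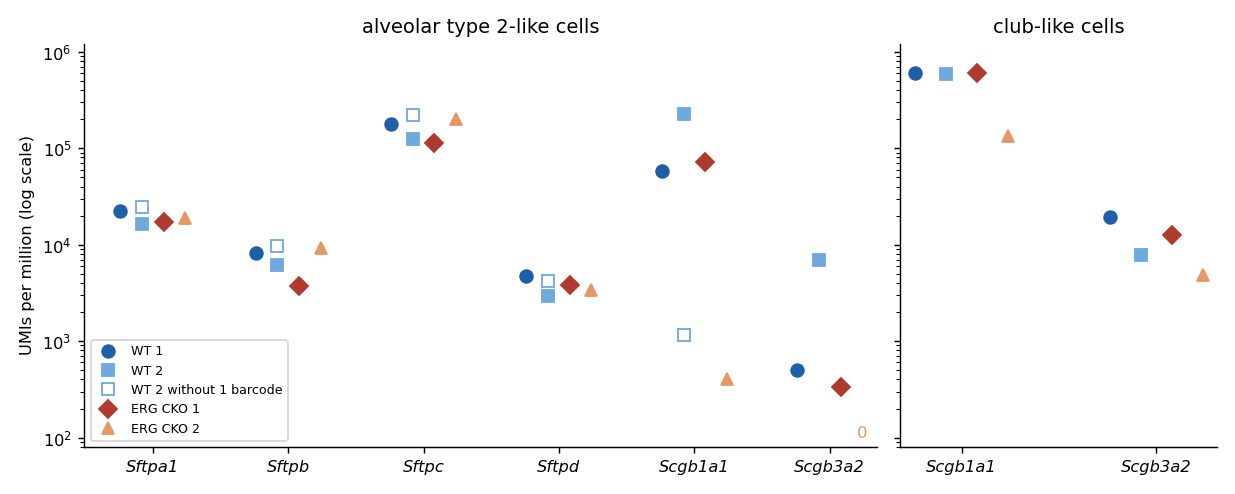
Levels of the members in alveolar type 2-like cells (left) and of the secretoglobins in club-like cells (right), as CPM summed over the cells of each library on a log axis. Each symbol is 1 library and open squares give WT replicate 2 without the barcode of 235523 UMIs. With that barcode kept the 4 surfactant genes overlap between groups, and without it Sftpa1 and Sftpd do not. Scgb1a1 at 131922 in ERG CKO replicate 2 lies below the other libraries in club-like cells, and a 0 marks no UMI.

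Single cells within the alveolar type 2-like cluster differed widely. In WT replicate 1 the Sftpc level per cell ran from 0 to 269699 CPM with a median of 194647, and in ERG CKO replicate 1 from 15.7 to 361349 CPM with a median of 182567. The medians of WT replicate 2 and ERG CKO replicate 2 were 224766 and 206177 CPM. Cells over 100000 CPM of Sftpc numbered 20, 13, 6 and 10 of the 53, 26, 39 and 22 epithelial cells. The alveolar type 1-like sum of ERG CKO replicate 2 reached 66378 CPM of Sftpc over 6 cells, against 0 to 331 CPM in the other libraries, and 1 barcode held 5175 of those 5176 Sftpc UMIs.

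The secretoglobins rested on very few cells. Scgb1a1 (ENSMUSG00000024653) lies on chr19:9083636-9087958, minus strand, and Scgb3a2 (ENSMUSG00000038791) on chr18:43764289-43767399, plus strand, in the same annotation. In club-like cells Scgb1a1 stood at 597118 and 591741 CPM in WT, against 607016 and 131922 CPM in ERG CKO, and ERG CKO replicate 2 was far below the rest. The sum of ERG CKO replicate 1 rested on few cells, since 1 barcode held 25784 of its 32360 club-like Scgb1a1 UMIs and 3 of 14 cells exceeded 100000 CPM. The level of the median club-like cell was 524533 and 597395 CPM in the WT replicates, against 4265 and 0 CPM in the ERG CKO replicates, at median depths of 6610, 1972, 662.5 and 790 UMIs. In ERG CKO replicate 2 1 barcode of 2506 UMIs carried all 1782 club-like Scgb1a1 UMIs. Scgb3a2 stood at 19507 and 7871 CPM in WT, against 12568 and 4812 CPM in ERG CKO, and the sums overlapped. In ERG CKO replicate 1 a single barcode held 570 of the 670 club-like Scgb3a2 UMIs, and the median cell had 0 CPM in both ERG CKO libraries, against 7446 and 7613 CPM in the WT replicates. Cells over 100000 CPM of Scgb1a1 numbered 10 and 3 in WT libraries, against 4 and 1 in ERG CKO, and 1 such cell each in WT replicates 1 and 2 and ERG CKO replicate 1 had been placed among alveolar type 2-like cells. Club-like cells were too few for a fit of their own.

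Over all epithelial cells no member passed the edgeR test, and the secretoglobins had the largest fold changes of the 6. Scgb1a1 stood at 178722 and 205559 CPM in WT, against 109424 and 6206 CPM in ERG CKO. Both ERG CKO libraries were below both WT libraries, with a log2 fold change of -2.07 (SE 1.05, adjusted p = 0.999, edgeR). Scgb3a2 stood at 5128 and 5683 CPM in WT, against 1753 and 215 CPM in ERG CKO, again without overlap, with a log2 fold change of -2.79 (SE 0.82, unadjusted p = 0.0125, adjusted p = 0.999, edgeR). Without the single WT barcode, WT replicate 2 dropped to 56973 CPM for Scgb1a1 and 769 CPM for Scgb3a2, both then below ERG CKO replicate 1, and the fold changes were -1.32 (SE 1.18) and -1.88 (SE 1.14). ERG CKO replicate 1 kept its own highest barcode there. That barcode held 25784 Scgb1a1 and 570 Scgb3a2 UMIs, 52.9% and 68.8% of those in the library. Sftpa1, Sftpb, Sftpc and Sftpd had epithelial log2 fold changes of -0.43, -0.46, -0.21 and -0.37. Of 6471 genes tested 0% were called by edgeR, with 205 at an unadjusted p under 0.05, and DESeq2 called 6, Scgb3a2 among them (adjusted p = 0.0461). With 1 library left out, where the lone mouse of a group is assumed to vary like the other group, edgeR called Scgb3a2 without WT replicate 1, WT replicate 2 or ERG CKO replicate 1, Scgb1a1 without WT replicate 1 or ERG CKO replicate 1, and Sftpc without ERG CKO replicate 2 (log2 fold change -1.26, adjusted p = 0.0128).

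**Figure D2:**
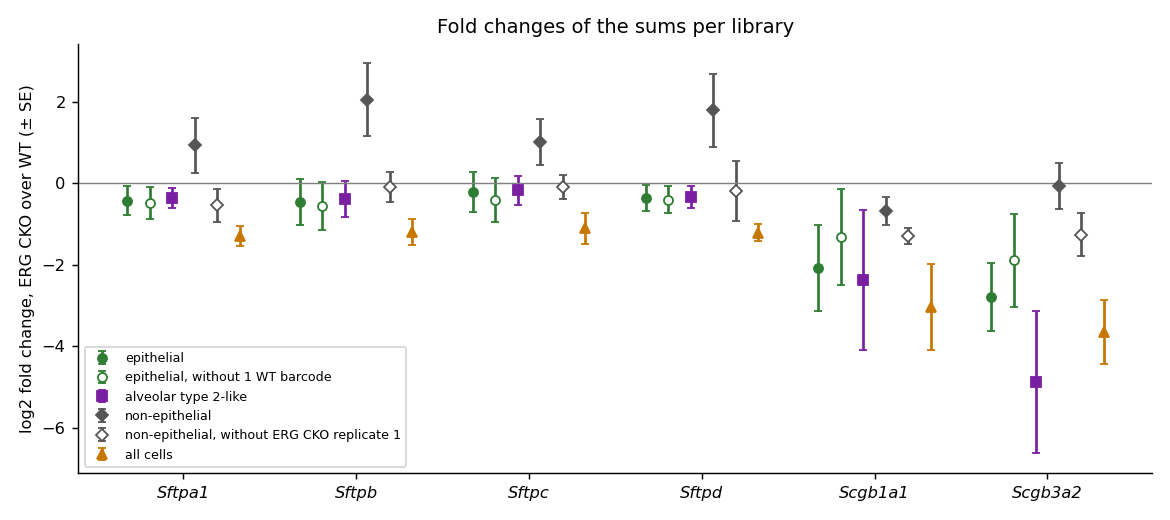
Log2 fold change of ERG CKO over WT (± SE) for each member in epithelial, alveolar type 2-like, non-epithelial and all cells, from edgeR fits to sums of 2 WT and 2 ERG CKO libraries. Open symbols leave out 1 WT barcode or ERG CKO replicate 1. The non-epithelial surfactant values of 0.93 to 2.06 come down to between -0.54 and -0.09 without ERG CKO replicate 1.

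Summed over every cell of a library, all 6 genes were lower in both ERG CKO libraries than in both WT libraries, although none was called by edgeR. The share of all genes with such an order was not counted, so this order alone does not set the members apart. For the secretoglobins this order was lost when only the WT barcode was left out. WT replicate 2 then stood at 2196 CPM for Scgb1a1 and 30.3 CPM for Scgb3a2. ERG CKO replicate 1 stood above it, at 2614 and 44.4 CPM, but kept its own highest barcode. That barcode held 52.9% of the Scgb1a1 and 68.8% of the Scgb3a2 UMIs of its library. Leaving out a barcode from WT replicate 2 alone therefore cannot decide whether the order rested on that WT barcode. In such sums fewer cells of a type and less RNA per cell cannot be told apart. Sftpc stood at 6869 and 5763 CPM in WT, against 1825 and 4038 CPM in ERG CKO, with a log2 fold change of -1.10 (SE 0.37, adjusted p = 0.60, edgeR). Sftpa1 stood at 915 and 733 CPM in WT, against 262 and 411 CPM in ERG CKO (log2 fold change -1.29, SE 0.24, adjusted p = 0.296, edgeR). Sftpd stood at 184 and 133 CPM in WT, against 57.6 and 78.7 CPM in ERG CKO (log2 fold change -1.22, SE 0.21, adjusted p = 0.247, edgeR). Beside these values, alveolar type 2-like cells were 0.883% and 0.651% of WT cells, against 0.258% and 0.432% of ERG CKO cells, and the part of this in the sums was not tested. The log2 fold changes were -1.19 for Sftpb, -3.04 for Scgb1a1 and -3.64 for Scgb3a2, and edgeR called the secretoglobins when either ERG CKO library was left out. Of 14154 genes 0% were called by edgeR, with 1077 at an unadjusted p under 0.05. DESeq2 called 159, with Sftpa1 (adjusted p = 1.82e-05), Sftpb (0.00822) and Sftpd (5.07e-05) among them.

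Outside the epithelium Scgb1a1 and Sftpc were found at low levels in each of 10 large classes of every library. Of the non-epithelial cells, 51.9% (95% Wilson interval 49.7 to 54.1) and 39.5% (37.4 to 41.8) in WT libraries, against 33.9% (32.1 to 35.7) and 13.3% (11.7 to 15.1) in ERG CKO held at least 1 Scgb1a1 UMI. At a fixed depth of 1000 UMIs per cell these shares were 14.7%, 11.3%, 9.55% and 2.53%, in the same order. Median depth of these cells was 4737 to 5381.5 UMIs. T cells, which are not known to make secretoglobins, held a Scgb1a1 UMI in 45.6%, 29.2%, 23.7% and 6.19% of cells, so shares near these are read as background and not as expression.

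For Sftpc the order of libraries was another one. Sftpc was found in 28.6% and 15.9% of non-epithelial cells in WT libraries, against 40.0% and 19.2% in ERG CKO, or 6.79%, 3.30%, 13.02% and 4.31% at 1000 UMIs. ERG CKO replicate 1 was highest and WT replicate 1 came next. Sftpb set that library apart further, being found in 14.1% (12.8 to 15.5) of its non-epithelial cells against 2.53%, 1.89% and 2.30% in WT replicates 1 and 2 and ERG CKO replicate 2. As levels, Sftpb stood at 4.20 and 3.31 CPM in WT, against 26.9 and 3.48 CPM in ERG CKO non-epithelial cells, and 27.2% of all Sftpb UMIs of ERG CKO replicate 1 lay in those cells, compared with 1.02% to 1.74% in the other libraries.

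**Figure D3:**
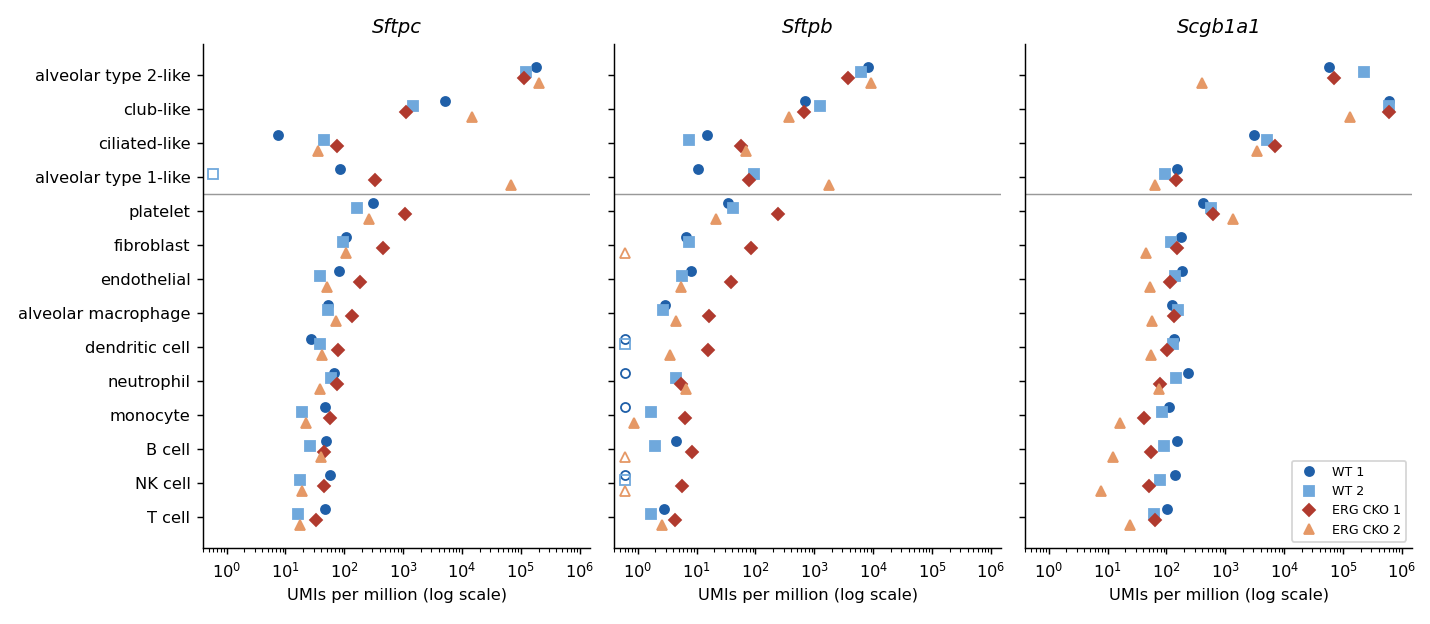
Levels of Sftpc, Sftpb and Scgb1a1 in 4 epithelial subtypes (above the line) and 10 other classes, in CPM on a log axis, with 1 symbol per library. Open symbols at the left edge stand for 0. ERG CKO replicate 1 is the highest library for Sftpb in 9 of the 10 non-epithelial classes, and ERG CKO replicate 2 is the lowest for Scgb1a1 in 9 of 10.

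The level outside the epithelium was not even across classes. Sftpc in ERG CKO replicate 1 stood at 1084 CPM in platelets, 453 CPM in fibroblasts, 187 CPM in endothelial cells and 138 CPM in alveolar macrophages, and at 56.2, 45.0, 44.5 and 32.4 CPM in monocytes, B cells, NK cells and T cells. In WT replicate 1 Sftpc stood at 305 CPM in platelets, 108 CPM in fibroblasts, 81.3 CPM in endothelial cells and 47.6 CPM in T cells. Fibroblasts stood above T cells in every library, at 108, 95.7, 453 and 108 CPM against 47.6, 16.5, 32.4 and 17.9 CPM (WT replicates 1 and 2, ERG CKO replicates 1 and 2). In ERG CKO replicate 1 the members made up over 1% of the UMIs in 4 of 189 fibroblasts and 11 of 190 platelet barcodes. What set the classes apart was not tested.

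With every barcode kept, the order of the libraries in background Scgb1a1 was that of the whole-library amount, and for Sftpc it was not. The libraries held 178329, 148192, 48744 and 2531 Scgb1a1 UMIs in all (WT replicates 1 and 2, ERG CKO replicates 1 and 2), and the non-epithelial level was 140, 111, 104 and 50.2 CPM, in the same order. Without the barcode of 235523 UMIs, WT replicate 2 held 28691 Scgb1a1 UMIs, fewer than ERG CKO replicate 1, and the 2 orders differed. The libraries held 101066, 76658, 34030 and 45486 Sftpc UMIs, and the non-epithelial level was 61.8, 34.7, 147 and 44.4 CPM. This first ERG CKO library thus had the fewest Sftpc UMIs and the highest level outside the epithelium. In ERG CKO replicate 2, 19.95% of the Scgb1a1 UMIs lay in non-epithelial cells, compared with 0.880% to 3.6% in the others.

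**Figure D4:**
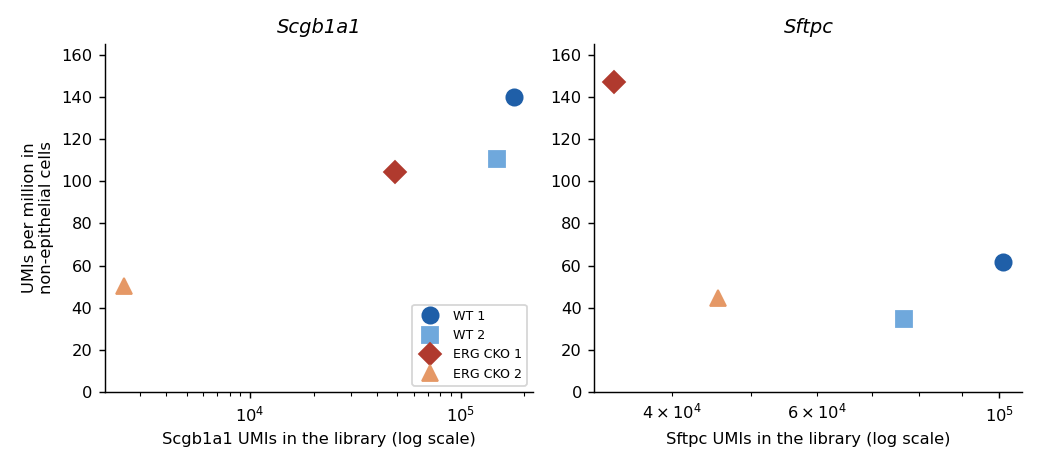
UMIs of Scgb1a1 (left) and Sftpc (right) in the whole library on a log axis against the level in non-epithelial cells in CPM, 1 symbol per library. For Scgb1a1 the order of the 4 libraries is the same on both axes with every barcode kept, whereas ERG CKO replicate 1 has the fewest Sftpc UMIs, 34030, and the highest non-epithelial level, 147. Without 1 barcode (not drawn) WT replicate 2 has 28691 Scgb1a1 UMIs, fewer than the 48744 of ERG CKO replicate 1.

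Tested over the sums of named non-epithelial cells, no member was called between WT and ERG CKO. The log2 fold changes were 2.06 for Sftpb (SE 0.89, adjusted p = 0.922), 1.79 for Sftpd (SE 0.90, adjusted p = 0.951), 1.01 for Sftpc (SE 0.57, adjusted p = 0.999) and 0.93 for Sftpa1 (SE 0.68, adjusted p = 1.0) by edgeR. They were -0.67 for Scgb1a1 (SE 0.34, adjusted p = 0.951) and -0.07 for Scgb3a2 (SE 0.57, adjusted p = 1.0). The positive surfactant values rested on 1 library. Without ERG CKO replicate 1 they were -0.09 for Sftpb, -0.19 for Sftpd, -0.09 for Sftpc and -0.54 for Sftpa1, and without ERG CKO replicate 2 Sftpb was called at 2.84 (adjusted p = 0.00668, edgeR). Of 13544 genes 0% were called by edgeR, with 781 at an unadjusted p under 0.05, and DESeq2 called 117, none of them a member.

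By class, 1 of the 27 member tests was called by edgeR, and in monocytes DESeq2 called 1 member and 0.1% of all genes. In B cells Scgb1a1 stood at 153 and 91.2 CPM in WT, against 54.9 and 12.6 CPM in ERG CKO, and it was found in 39.7%, 30.6%, 21.4% and 3.09% of the cells. Both ERG CKO libraries were below both WT libraries, with a log2 fold change of -1.66 (SE 0.35, adjusted p = 0.0397, edgeR), and the call was lost without WT replicate 1 (adjusted p = 0.529) and by DESeq2 (adjusted p = 1.0). With the replicate number, which moved with sex, as a block, 8 of the member tests were called: Scgb1a1 in B cells, NK cells, T cells, monocytes and endothelial cells, Sftpc in endothelial cells and alveolar macrophages, and Sftpb in endothelial cells. In NK cells the levels were 137, 76.7, 50.1 and 7.67 CPM (log2 fold change -2.16, SE 0.44, adjusted p = 0.0595 by edgeR, or 0.000322 under the block). The Scgb1a1 fold change was below 0 in 9 of the 10 classes and above 0 in platelets, and both ERG CKO libraries lay below both WT libraries in 6 of the 10. How many of all genes had that order in a class was not counted. Under the block, edgeR called 0.628% of all genes in B cells, 0.346% in NK cells and 1.77% in T cells. The block shares were 0.0628% in monocytes, 7.36% in endothelial cells and 1.16% in alveolar macrophages. Without the block, the share of all genes called was 0.292% in B cells, 0.0962% in NK cells, 0.0224% in T cells, 0.734% in dendritic cells, 2.38% in endothelial cells, 0.681% in fibroblasts, 0.0126% in monocytes, and 0% in alveolar macrophages, neutrophils and platelets. In these last classes edgeR had 440, 139 and 50 genes at an unadjusted p under 0.05, and DESeq2 called 1, 0 and 0.

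For Sftpc all 10 classes passed the filter on low counts, 7 fold changes were above 0, and none was called without the block. The largest by class was 1.61 in platelets (SE 0.62, adjusted p = 0.998) and 1.60 in fibroblasts (SE 0.43, adjusted p = 0.151, edgeR). In alveolar macrophages, which take up and degrade surfactant, Sftpc stood at 52.3 and 52.2 CPM in WT, against 138 and 73.3 CPM in ERG CKO, without overlap, with a log2 fold change of 1.03 (SE 0.25, unadjusted p = 0.00177, adjusted p = 0.557 by edgeR, or 7.89e-05 under the block). The highest library was ERG CKO replicate 1 in 7 of the 10 classes. Sftpb passed the filter in 2 classes, endothelial cells and alveolar macrophages, Sftpa1 in 4, Scgb3a2 in 1 and Sftpd in none.

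The mix of surfactant genes outside the epithelium was close to that of alveolar type 2-like cells for Sftpa1, with overlapping intervals in every library, and not for Sftpb, with intervals apart in every library. Of the Sftpa1 and Sftpc UMIs of alveolar type 2-like cells, 11.1%, 11.7%, 13.3% and 8.52% were Sftpa1, and in non-epithelial cells 12.4%, 12.2%, 12.2% and 9.33%, so the lowest library was the same. Of the Sftpb and Sftpc UMIs, 4.46%, 4.77%, 3.21% and 4.40% were Sftpb in alveolar type 2-like cells, but 6.37%, 8.71%, 15.5% and 7.26% in non-epithelial cells. ERG CKO replicate 1 had the lowest share in alveolar type 2-like cells and the highest in non-epithelial cells. In club-like cells the Sftpb share was 12.1%, 45.5%, 37.9% and 2.42%, so alveolar type 2-like cells were not the only cells with both genes, and the origin of the non-epithelial UMIs was not tested. In that library the share was 16.9% (95% Wilson interval 14.5 to 19.5) in endothelial cells, 15.6% (12.96 to 18.8) in fibroblasts and 10.4% (7.72 to 13.9) in alveolar macrophages. In endothelial cells of the other libraries it was 8.92%, 12.7% and 9.65%, with intervals from 5.47% to 19.9%. Of the Sftpd and Sftpc UMIs, 2.61%, 2.31%, 3.30% and 1.64% were Sftpd in alveolar type 2-like cells and 2.77%, 2.15%, 4.75% and 2.4% in non-epithelial cells, with intervals apart in ERG CKO replicate 1 alone (3.07 to 3.55 and 3.99 to 5.64). Intervals cover counting error only.

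**Figure D5:**
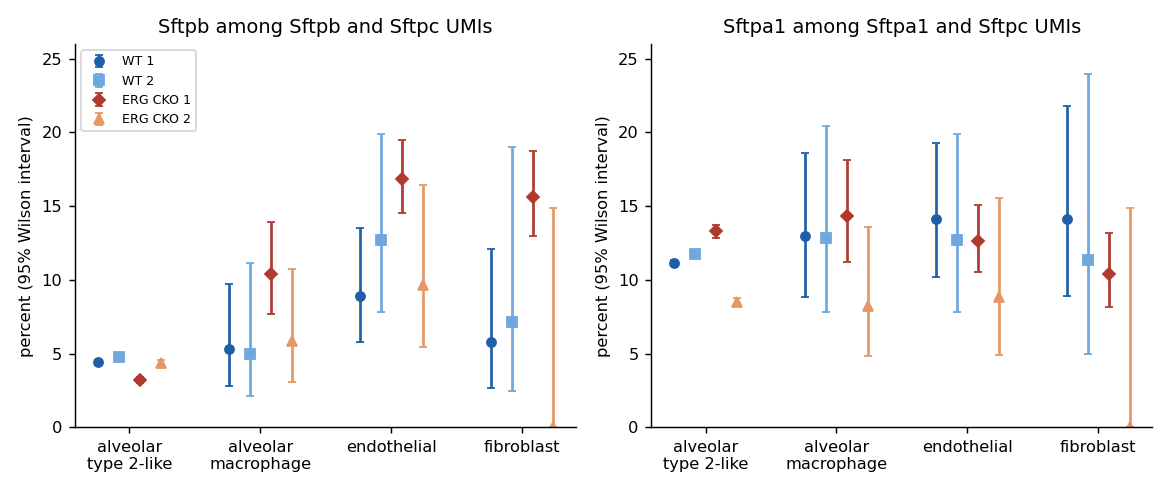
Percent of Sftpb among Sftpb and Sftpc UMIs (left) and of Sftpa1 among Sftpa1 and Sftpc UMIs (right) in 4 classes, with 95% Wilson intervals and 1 symbol per library. The Sftpb share of ERG CKO replicate 1 runs from 3.21% in alveolar type 2-like cells to 16.9% in endothelial cells, while the Sftpa1 share stays between 8.23% and 14.3% except in fibroblasts of ERG CKO replicate 2, where 22 Sftpc UMIs came with 0 of Sftpb and 0 of Sftpa1.

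Other epithelial transcripts outside the epithelium are given beside this result. Summed over 10 epithelial markers that exclude the members, non-epithelial cells stood at 79.6, 43.6, 72.3 and 52.7 CPM, so ERG CKO replicate 1 was not the highest library by these. The 12 alveolar type 2 markers summed to 202, 310, 371 and 338 CPM in the same cells, and by these ERG CKO replicate 1 was the highest library. Cells over 10% mitochondrial UMIs were 7.95% and 5.81% of WT cells, against 11.8% and 9.56% of ERG CKO cells, highest in ERG CKO replicate 1. The part of any of these in the Sftpb and Sftpc levels was not tested.

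The mix of Scgb3a2 with Scgb1a1 had overlapping intervals in and outside the epithelium in 3 of the 4 libraries. Scgb3a2 made up 2.79%, 2.69%, 1.58% and 3.35% of the pair in epithelial cells and 2.14%, 2.03%, 3.47% and 2.13% in non-epithelial cells. The intervals were apart in ERG CKO replicate 1 (1.47 to 1.69 and 2.72 to 4.41). Scgb1a1 made up 65.7%, 69.3%, 68.5% and 4.18% of the Scgb1a1 and Sftpc UMIs of epithelial cells but 69.4%, 76.1%, 41.6% and 53.0% of those of non-epithelial cells. Both epithelial shares of WT replicate 2 rested on 1 barcode. Without it, the epithelial cells of that library held 27257 Scgb1a1, 368 Scgb3a2 and 64946 Sftpc UMIs. In ERG CKO replicate 2 the epithelial cells held far less Scgb1a1 beside Sftpc than the other cells of the same library did.

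Whether the ERG CKO effect differed between epithelial and non-epithelial cells was tested in 1 fit over both sums of each library. Scgb3a2 was called, with an epithelial minus non-epithelial difference of -2.96 in log2 fold change (SE 0.46, adjusted p = 0.0124, edgeR interaction). Both ERG CKO libraries were below both WT libraries in epithelial cells (1753 and 215 against 5128 and 5683 CPM), and non-epithelial levels overlapped (3.06 and 2.29 CPM in WT, 3.75 and 1.09 CPM in ERG CKO). The call ended when the 1 WT barcode of 235523 UMIs was left out, with a difference of -1.47 (SE 0.61, adjusted p = 1.0). The barcodes with the most Scgb3a2 in the other libraries were kept in that fit. The other members were not called. Their differences were -2.44 for Scgb1a1 (adjusted p = 0.403), -2.32 for Sftpb, -1.97 for Sftpd, -1.28 for Sftpc and -1.21 for Sftpa1 (adjusted p = 1.0 for these 4, edgeR). Leaving out 1 library called 2 to 5 members, Scgb3a2 each time, while without ERG CKO replicate 1 the 4 surfactant differences were above 0. Of 13705 genes 9, or 0.0657%, were called.

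The genes that serve surfactant in alveolar type 2-like cells were given by lists, and none of their members was called there or over all epithelial cells. All 13 genes of surfactant lipid and the lamellar body were tested and all 13 fold changes were below 0, with a median of -0.51 against -0.01 for all genes. Slc34a2, a phosphate transporter of type 2 cells, stood at 3454 and 2654 CPM in WT, against 1719 and 3822 CPM in ERG CKO (log2 fold change -0.38, SE 0.40), and Scd1, a fatty acid desaturase, at 1951, 1300, 671 and 2349 CPM (-0.33, SE 0.56). ERG CKO replicate 1 was the low library for both, as for Sftpb. Of 5 tested genes of surfactant protein maturation all 5 fold changes were below 0, with a median of -0.34. Napsa, an aspartic protease that acts on the Sftpb precursor, stood at 2549, 1378, 1216 and 2054 CPM (-0.49, SE 0.37), and Ctsh, a cathepsin of the same pathway, at 1240, 763, 1126 and 1065 CPM (-0.11, SE 0.27).

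Epithelial transcription factors gave a median of -0.21 over 10 tested genes, 2 above and 8 below 0. Nkx2-1 stood at 282 and 254 CPM in WT, against 267 and 341 CPM in ERG CKO (-0.07, SE 0.29), and Etv5, an ETS factor of type 2 cells, at 310, 262, 110 and 403 CPM (-0.39, SE 0.56). Among secreted defence proteins 7 of 13 were tested, with a median of -0.19 and none called. Lyz2, a lysozyme, stood at 28154, 21126, 10594 and 30448 CPM (-0.49, SE 0.49) and Cxcl15, a chemokine of lung epithelium, at 8071, 3950, 3589 and 5417 CPM (-0.63, SE 0.36). In alveolar macrophages all 10 genes of surfactant clearance were tested, 5 above and 5 below 0, with a median of 0.04 and none called. Lpl, lipoprotein lipase, stood there at 1938, 2678, 2469 and 2706 CPM (0.18, SE 0.15) and Abcg1, a cholesterol exporter, at 1497, 1593, 1310 and 1547 CPM (-0.10, SE 0.12).

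Across cell types the members formed a surfactant group and a secretoglobin group. Over 71 profiles of class by library, and as a description only since profiles of a library share its background, the 4 surfactant genes correlated with each other at Pearson r of 0.92 to 0.96 on log2(CPM + 10), and Scgb1a1 with Scgb3a2 at 0.96. Between the groups r ran from 0.59 for Sftpc with Scgb3a2 to 0.73 for Sftpb with Scgb1a1. Among 12669 genes the non-members most like the surfactant genes were Cxcl15 (r of 0.95 to 0.97), Sfta2 (0.93 with Sftpb, 0.96 with Sftpa1 and 0.97 with Sftpd) and Slc34a2 (0.93 with Sftpc). Those most like the secretoglobins were Cyp2f2 (0.88 with Scgb1a1), Cldn10 (0.86 with Scgb1a1 and 0.92 with Scgb3a2) and Pon1 (0.88 with Scgb3a2).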

How the data were processed

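Whole-lung cell suspensions of 4 mice (2 WT, 2 ERG CKO, 1 library each) were profiled by 10x single-cell RNA sequencing. The authors deposited raw UMI counts per gene and cell, made with Cell Ranger 3.1.0 against mm10 per the submitters' processing notes, and the annotation is not given in the sources used here. Every deposited cell had at least 500 UMIs and 300 genes. The limits of the study's own quality filter are not given in the sources used here, so no cell was removed. The study kept far fewer cells than the deposited matrix holds, so shares and low-depth classes here can differ from the study's, as can the rebuilt names.

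Cells were clustered in Seurat 5.3.0 (2000 variable genes, CCA alignment, 30 dimensions, resolution 0.8, epithelial cells again with 20 dimensions at 0.6) with the 6 members left out of the variable genes and the markers. A cluster was named from at least 3 markers, and stayed unnamed where its 10 leading genes held more markers of another class, where a second class also had 3 markers at a mean log2 fold of 1 or more, or where depth was low and no leading gene was a marker. Scrublet in scanpy 1.11.5 marked 60 doublets (0.641%), which were kept and left out in an alternative.

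Counts were summed per library and tested with edgeR 4.0.16 (R 4.3.3, TMM, filterByExpr, quasi-likelihood F test), with Benjamini-Hochberg adjusted p of at most 0.05 as a call. SE is the size of the log2 fold change over the square root of F. CPM scales a gene's UMIs to a common total of the summed cells. The chi-square per degree of freedom came to 15.9 between the WT replicates and 17.4 between the ERG CKO replicates, so no library repeated another. With 1 library per mouse, p-values measure the spread between 2 mice a group. The test was checked on simulated counts. Wilson intervals are at 95%. Alternatives were DESeq2 1.42.0, total-UMI scaling, no filter, other clustering, doublets, mitochondrial share, a replicate block and leaving out each library. Keeping the unnamed epithelial subcluster, naming by pan-epithelial markers, leaving the members out of the scaling and leaving out 1 WT barcode were chosen after seeing the data.

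Named genes were the 6 members, the 2 genes most correlated with each, and from each gene list those called or else the 2 of highest mean CPM. Members and lists were chosen with earlier results of these data known.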

Additional observations from a re-analysis of the deposited data

Results flagged for a closer look

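For Scgb3a2 the ERG CKO effect differed between epithelial and non-epithelial cells by the test of the difference itself (-2.96 in log2 fold change, SE 0.46, adjusted p = 0.0124, edgeR). Epithelial levels were lower in 2 of 2 ERG CKO libraries than in either WT library. A single WT replicate 2 barcode held 90.3% of that library's Scgb3a2 UMIs, and without it the difference was -1.47 (adjusted p = 1.0). Under naming by pan-epithelial markers alone it was -2.61 (adjusted p = 1.0).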

How the results depend on the processing

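Of 520 alternative values of single members, 456 kept direction and side of the threshold, 39 came to be called, 4 lost the call and 21 turned direction. Genes called by DESeq2 numbered 6 in epithelial, 117 in non-epithelial and 159 in all cells (members 1, 0 and 3), against 0 by edgeR. In monocytes DESeq2 called 8 genes, 1 of them a member, against 1 gene and no member by edgeR. Without the filter on low counts 86 genes were called in epithelial, 42 in alveolar type 2-like, 139 in non-epithelial and 137 in all cells and 66 in the interaction (members 2, 2, 0, 3 and 5), and 13 members over the classes. Without alignment 1 gene was called in alveolar type 2-like cells, 10 in non-epithelial cells and 22 in the interaction, and at resolution 0.4 alveolar type 2-like cells had 1. Keeping the unnamed subcluster gave 49 genes and 2 members in the interaction, pan-epithelial naming 29 and 0, and leaving out the WT barcode 0 members. Over the classes, 2 members were called without doublets and 2 without cells over 10% mitochondrial.

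Replicate numbers share only a number and the sex it moved with. Same-numbered libraries had deviations correlated at -0.21 in epithelial, 0.29 in non-epithelial and 0.23 in all cells, over 2 pairs. With a replicate block 1 gene was called in non-epithelial and 1 in all cells, 0 in epithelial and alveolar type 2-like cells, and 8 members over the classes in place of 1. Genes called also rose, from 249 to 771 in endothelial cells, 2 to 158 in T cells and 0 to 108 in alveolar macrophages. In dendritic cells they rose from 37 to 186, and in neutrophils they stayed at 0.

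Leaving out 1 library leaves a group with 1 mouse, assumed to vary like the other group. Genes called then ranged from 2 to 48 (epithelial), 1 to 19 (alveolar type 2-like), 1 to 37 (non-epithelial), 1 to 25 (all cells) and 23 to 232 (interaction), and members from 1 to 2, 0 to 2, 0 to 1, 0 to 2 and 2 to 5, with 4 to 11 over the classes. The difference in epithelial share ran from -1.12 to 0.0143 points, and was 0.681 with the unnamed subcluster. Epithelial log2 fold changes ran from -1.75 to 0.20 for Sftpb and -1.26 to 0.38 for Sftpc. Non-epithelial ones ran from -0.54 to 1.60 for Sftpa1, -0.088 to 2.84 for Sftpb, -0.088 to 1.62 for Sftpc, -0.19 to 2.53 for Sftpd and -1.26 to 0.49 for Scgb3a2. Alveolar type 2-like ones ran from -1.28 to 0.16 for Sftpb and -0.74 to 0.23 for Sftpc. Interaction ones ran from -2.68 to 0.44 for Sftpa1, -4.59 to 0.24 for Sftpb, -2.92 to 0.37 for Sftpc and -3.38 to 0.065 for Sftpd. The positive end of the surfactant values in epithelial and alveolar type 2-like cells and the interaction was reached without ERG CKO replicate 1, as was the negative end in non-epithelial cells. The cause was not tested.

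Total-UMI scaling moved the median of all genes to 0.29 in epithelial and 0.27 in alveolar type 2-like cells and 0.28 in the interaction, and Sftpc to 0.075 and 0.079 in these cell sums. In alveolar type 2-like cells Sftpc was 0.028 at resolution 0.4 and 0.062 without alignment, and Scgb1a1 was 1.66 without the highest cell of each library and 0.12 without the WT barcode. Non-epithelial Scgb3a2 was 0.018 under pan-epithelial naming. At 1000 UMIs per cell the shares of non-epithelial cells with a UMI were 0.421%, 0.432%, 3.34% and 0.274% for Sftpb, 6.79%, 3.30%, 13.02% and 4.31% for Sftpc, and 14.7%, 11.3%, 9.55% and 2.53% for Scgb1a1 (WT replicates 1 and 2, ERG CKO replicates 1 and 2).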
